A study of Mus musculus with 4 samples.

Results

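The 10 genes described here encode parts of the cell cortex, the thin actomyosin layer beneath the plasma membrane, or tie that layer to the membrane. They were the ERM genes ezrin (Ezr), radixin (Rdx) and moesin (Msn), the ERM-binding scaffold gene Slc9a3r1 (also called EBP50 or NHERF1), the non-muscle myosin II heavy chain genes Myh9 and Myh10, the cytoplasmic actin genes Actb and Actg1, the cofilin gene Cfl1 and the GTPase gene Rhoa. They were chosen by name, with earlier results of these data known, and each symbol matched 1 Ensembl identifier. They are 10 of 46078 gene rows, and 10 of 10 had a mean of at least 20 normalised counts over the cells kept, as had 8757 genes in all. The mean was taken over all groups, so a gene could pass through the group in which it was high.

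The question of the study was how the phase of the cell cycle relates to the exit of mouse embryonic stem (ES) cells from naive pluripotency. Wild-type ES cells, all grown first in 2i (a medium with inhibitors of the kinases MEK and GSK3 that holds cells in the naive state, described by the study as also holding the cytokine LIF), were sorted and replated on laminin for 6 h, either again with 2i or with N2B27 alone, the base medium without these additions, in which cells leave that state. The sort took either a gate for small cells, set on forward and side scatter to take cells leaving mitosis and in G1, or no gate, which with the 2 media gave 4 groups. Below, values for all 4 come in the order 2i small, 2i ungated, N2B27 small, N2B27 ungated unless named otherwise. Each group was 1 sample of 24 single cells sequenced with Smart-seq2, a whole-transcript method without molecular identifiers. The study's methods name E14 as its wild-type ES cell line, and the labels name no strain or line. How well the gate selects by phase was examined by the submitters in separate cells with a cell-cycle reporter. The study also called phases in the sequenced cells after the 6 h. It placed most small cells in G1 or S, and the ungated cells mostly in S and G2/M. Each medium had its own plate and sequencing lane, so medium, plate and lane cannot be told apart. Within a plate, small and ungated cells sat on different index rows, so gate and index row cannot be told apart either.

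With 1 sample a group there is no replicate of a condition, and cells of a sample are not replicates, so no p-value is given. Differences are log2 ratios of mean normalised counts plus a pseudocount of 1, and a ratio of at least 1 in size, a 2-fold change, is counted beside the share of all 8757 genes that passed the same size. Normalised counts are read counts divided by the size factor of the cell.

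In outline, the cortex works as a contractile shell. ERM proteins bind membrane proteins and phosphoinositides through their N-terminal FERM domain and actin filaments through their C-terminus, and they are opened and held active by phosphorylation of a conserved C-terminal threonine. Slc9a3r1 binds the FERM domain and links it to membrane transporters and receptors. Myosin II pulls on the actin filaments, cofilin severs them, and RhoA stimulates both actin assembly and myosin activity through formins and the kinase ROCK. In ES cells, membrane-to-cortex attachment and the cell shape it sets are studied as part of the exit from naive pluripotency.

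Of the 96 cells, 75 were kept: in 2i, 12 small and 22 ungated cells, and in N2B27, 20 small and 21 ungated cells. Kept cells held 1364155 to 4844170 counts on genes. Median genes detected were 7603, 9515.5, 7462.5 and 8200 in that order, and median shares of counts on ERCC spike-ins were 3.47%, 1.28%, 2.45% and 1.14%. In 4 kept 2i small cells the spike-in share was above 10%, at 11.1%, 17.1%, 16.7% and 40.9%, so ratios against 2i small are also given for the other 8 cells. These 8 include 1 cell with 15712 genes detected and 0.067% spike-ins. The most genes in a cell of the other groups were 10335, 9270 and 9631, and their lowest spike-in shares 0.718%, 0.799% and 0.744%. By expression-based phase calls, 6, 5 and 1 of the 2i small cells were in G1, S and G2/M, against 0, 8 and 14 of the 2i ungated, 6, 11 and 3 of the N2B27 small and 2, 4 and 15 of the N2B27 ungated cells. Rhoa is 1 of the 667 genes behind these calls. All 8 ES cell markers (Pou5f1, Sox2, Nanog, Zfp42, Esrrb, Dppa5a, Utf1 and Fgf4) had counts in each of the 4 groups, with summed medians of 16352 to 22277 normalised counts. At least 5 of 6 fibroblast markers were at 0 in each group. The summed median of 6 primitive endoderm markers and that of 4 trophectoderm markers were 0 in each group, and the highest single cell reached 533.5 and 352.3. The part of these other-lineage counts in the results was not tested.

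The 3 ERM genes share their regulatory threonine, and their sequences there are shown because they let a reader see how alike the proteins, and how separable the transcripts, are. The windows below are 27 bases of coding sequence (GENCODE M21 transcripts, GRCm38, 5′ to 3′ on the coding strand) with the threonine codon in capitals.
Ezr, chr17:6739351-6739377, minus strand, codon 567 of 586: gacaagtataagACGctgcggcaaatc
Rdx, chr9:52086405-52086431, plus strand, codon 564 of 583: gataagtacaagACCcttcggcagatt
Msn, chrX:96166560-96166586, plus strand, codon 558 of 577: gacaaatacaagACCctgcgccagatc
All 3 windows translate to the same residues, and 19 of the 27 bases were the same in all 3. Over the whole coding sequence Ezr was 72.3% identical to Rdx and 75.4% to Msn, and Rdx was 73.9% identical to Msn. No 50-base window of a transcript occurred in another of the 3, so reads of at least that length can separate them.

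Ezr (ENSMUSG00000052397, chr17:6738041-6782784, minus strand), the linker known as the main ERM protein of epithelia and early embryos, was lower in small than in ungated cells in N2B27. Levels in N2B27 small cells spanned 0 to 1603 normalised counts around a median of 218, and those in ungated cells 0.80 to 2742 around 554. The ranges overlapped almost wholly. At least 10 counts of Ezr were found in 13 of 20 small and 20 of 21 ungated cells. The median gene of the 8757 did so in 40% of small and 57.1% of ungated cells. The Ezr means were 302 (SD 399, n = 20 cells) and 804 (SD 638, n = 21 cells), a log2 ratio of -1.41. The counts behind them were 7447 (95% Poisson interval 7279 to 7618) and 18946 (18677 to 19218), which covers counting error only. Among cells with at least 10 counts the medians were 314 and 570, the means 463 and 844 and the ratio -0.86, so the level in these cells differed as well as their number.

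In 2i the Ezr levels ran from 0 to 1553 in small cells with a median of 97.3, and from 53.3 to 2411 with a median of 659 in ungated cells. The log2 ratio was -0.97, and it was -0.39 over the 8 small cells at or below 10% spike-ins, whose median was 453. All 4 small cells above 10% spike-ins had at most 5.64 normalised counts of Ezr. Ungated cells of the 2 media had close Ezr means, 837 in 2i and 804 in N2B27, a log2 ratio of -0.06.

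Slc9a3r1 (ENSMUSG00000020733, chr11:115163341-115181181, plus strand), the scaffold that joins ERM proteins to membrane proteins, was also lower in small cells in both media. In N2B27 small cells it ran from 0 to 1203 normalised counts with a median of 180, against 137 to 1327 with a median of 658 in ungated cells. Here 9 of the 20 small cells and 0 of the 21 ungated cells had fewer than 10 counts. The median gene of the 8757 reached 10 counts in 40% of N2B27 small and 57.1% of N2B27 ungated cells. The log2 ratio of the Slc9a3r1 means (350 and 654) was -0.90. Among cells with at least 10 counts, with means of 635 and 654, it was -0.04. In 2i the ratio was -1.12, and -0.54 over the 8 small cells at or below 10% spike-ins, with medians of 372 there and 516 in ungated cells.

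The low cells of both genes were partly the same cells. Of the 20 N2B27 small cells, 7 had fewer than 10 counts of Ezr, 9 fewer than 10 of Slc9a3r1 and 6 fewer than 10 of both. The 10 cells low for either gene had a median of 6816.5 genes detected and 3.05% spike-ins, against 7836.5 genes and 1.88% in the other 10, and 4 of them were called G1 and 6 S. The part of RNA content per cell in these values was not tested. Across the 20 cells Ezr and Slc9a3r1 had a Pearson r of 0.52 on log2 values, and r was 0.10 in the 22 2i ungated, -0.25 in the 21 N2B27 ungated and 0.59 in 8 2i small cells. Such cells share a plate, a sample and their size factors, and Slc9a3r1 had r of 0.58 with the number of genes detected in the N2B27 small cells.

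Msn (ENSMUSG00000031207, chrX:96096042-96168552, plus strand), the ERM protein best known from leukocytes and endothelium, had the lowest mean of the 3 per kilobase of exon in each of the 4 groups and differed with both gate and medium. In N2B27 it ran from 0 to 184 normalised counts in small cells (median 36.6) and from 0 to 715 in ungated cells (median 122), a log2 ratio of means of -1.47. In 2i small cells the median was 1.18 and the highest cell 125, against a median of 53.5 and a highest cell of 288 in ungated cells, a ratio of -2.05, or -1.52 without the 4 high spike-in cells and 0.52 with size factors from spike-ins alone, under which the median of all genes was 0.77. Msn was the only member at least 2-fold lower in small cells in both media, without those 4 cells and with size factors from genes. In the same setting 6.04% of all genes were. Among cells with at least 10 counts of Msn (12 of 20 and 18 of 21 in N2B27) the ratio was -0.96 in N2B27 and -0.83 in 2i. Counts were low: 392 reads in all lay behind the 2i small value and 4 of its 12 cells had at least 10. The cell with 15712 genes detected, at 54.9 normalised counts, was among these 4.

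The mean of Msn was also higher in N2B27 than in 2i. Ungated cells had means of 171 (SD 172, n = 21 cells) in N2B27 and 83.5 (SD 84.1, n = 22 cells) in 2i, a log2 ratio of 1.03, with overlapping ranges. At least 10 counts were found in 18 of 21 and 18 of 22 cells, and among those cells the ratio was 0.97. The ungated ratio was no longer past 2-fold with the highest cell of each group left out, with means of logs or with a pseudocount of 5. The small cells gave 1.61, or 1.08 without the high spike-in cells, and -1.34 with size factors from spike-ins alone.

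Rdx (ENSMUSG00000032050, chr9:52047173-52088735, plus strand), the ERM protein first found in cell-to-cell adherens junctions, showed how far 1 cell can set a mean here. Its 2i small mean of 754 normalised counts held 80.7% from 1 cell at 7301, the cell with 40.9% spike-ins, and without the 4 high spike-in cells the mean was 214, against 146 in 2i ungated. The log2 ratio of small to ungated was 2.36 with all 12 cells and 0.54 with 8. In N2B27 the ratio was -0.44, with medians of 17.7 in small and 121 in ungated cells. Among cells with at least 10 counts (11 of 20 and 17 of 21) it was 0.11.

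Small and ungated cells lay on 2 index rows each per plate, which gives 4 pairs of a small with an ungated row. Ezr, Msn and Slc9a3r1 were lower in the small row in 4 of 4 pairs in N2B27, with log2 ratios from -1.82 to -0.90, from -1.80 to -1.14 and from -1.20 to -0.65. In 2i without the high spike-in cells they were lower in 4 of 4 pairs too, from -0.43 to -0.34, from -6.34 to -0.37 and from -0.91 to -0.16. Of the other members, Rdx (-0.83 to -0.04) and Cfl1 (-0.83 to -0.06) were lower in 4 of 4 pairs in N2B27, and Cfl1 and Actg1 in 2i without the high spike-in cells. The 4 pairs cross 2 rows with 2 and are not independent. They split the same cells that gave the group ratios, so they add no replicate. Of all 8757 genes, 55.3% had a group ratio below 0 in N2B27 and 61.0% in 2i without the high spike-in cells. The 2 rows of 1 gate in N2B27 differed by up to 0.57 for Ezr, 0.59 for Msn and 0.40 for Slc9a3r1. Without the high spike-in cells, the 2 small rows in 2i differed by 5.10 for Msn, more than its difference between gates. For Slc9a3r1 the 2 ungated rows in 2i differed by 0.57, more than the size of its gate ratio of -0.54. Within each called phase in N2B27, the Ezr mean was lower in small than in ungated cells, at 329 (6 cells) against 1626 (2 cells) in G1, 233 (11) against 573 (4) in S and 498 (3) against 756 (15) in G2/M. These G1 means of Ezr rest largely on 1 cell each: the highest small cell was at 1603 and the 2 ungated cells at 2742 and 510. Slc9a3r1 was lower in small cells in G1 (221 against 701) and S (298 against 771) and higher in G2/M (800 against 616).

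**Figure D1:**
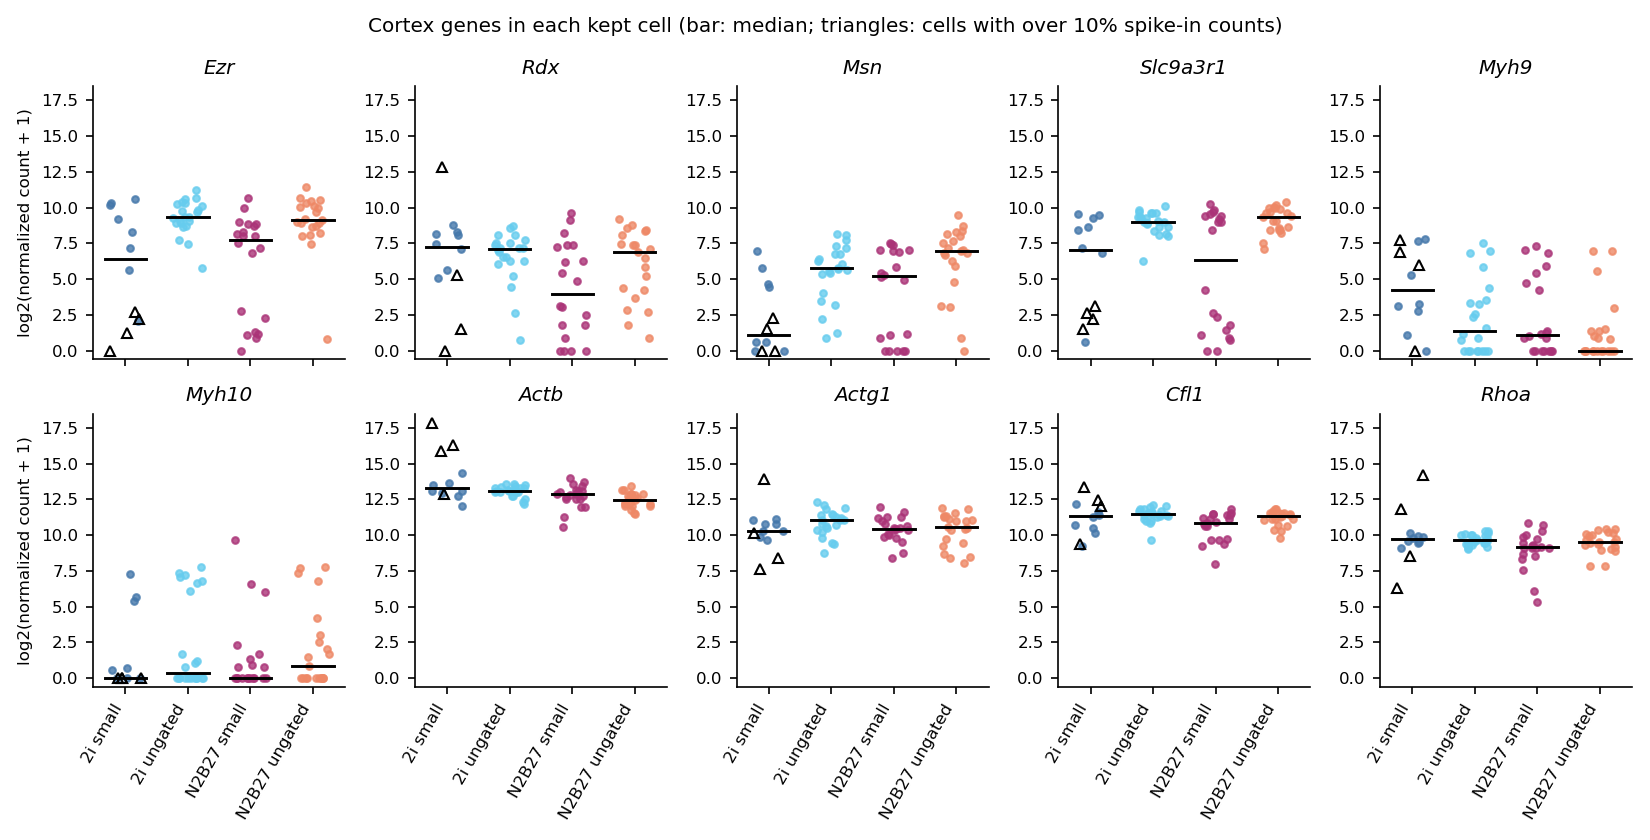
Each point is 1 kept cell, with log2 of the normalised count plus 1 on the y axis, the 4 groups side by side for each of the 10 genes, bars at the group medians and triangles for the 4 2i small cells above 10% spike-ins. Slc9a3r1 and Ezr show cells at or near 0 in N2B27 small (medians 180 and 218) that are rare among ungated cells (medians 658 and 554), while Actb, Actg1, Cfl1 and Rhoa are present in each cell.

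Within the ERM family, Ezr took most of the transcripts per length. Per kilobase of exon, and per cell with at least 10 counts in the family, Ezr made up a median of 86.9% of the 3 in 2i ungated and 83.3% in N2B27 ungated cells, 69.6% in N2B27 small and 58.1% in 2i small cells (72.0% without the high spike-in cells). Ezr was over 50% in 21 of 22 2i ungated and 19 of 21 N2B27 ungated cells, but in 6 of 10 2i small and 12 of 19 N2B27 small cells. The 10 2i small cells include high spike-in cells at 0% and 16.5% Ezr, and 8 cells remain without these. Single cells were nearly all Rdx, up to 100% in 2i small (the cell with 40.9% spike-ins) and 97.8% in N2B27 small. In N2B27 small 1 cell was nearly all Msn (98.2%). All 3 ERM transcripts reached 10 counts in 4 of 12 2i small, 16 of 22 2i ungated, 4 of 20 N2B27 small and 13 of 21 N2B27 ungated cells. Singly, in N2B27 small cells, Ezr reached 10 counts in 13, Rdx in 11 and Msn in 12 of 20 cells. The median gene of the 8757 did so in 40% of them. In 2i small, 2i ungated and N2B27 ungated cells its share was 50%, 77.3% and 57.1%.

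The promoters of Ezr, Msn and Slc9a3r1 are printed because these 3 genes are the ERM members and scaffold whose small-to-ungated ratio was below 0 in both media. Not each of these ratios passed 2-fold, and other members had ratios below 0 too. They are the bases upstream of the start (RefSeq, GRCm38.p6, up to 250 bases and cut where the transcript begins, 5′ to 3′ on the strand of the gene), with capitals for the motifs searched, on either strand: the GC box core GGGCGG, the CCAAT box and the E-box CACGTG.
Ezr, chr17:6782785-6783030, minus strand: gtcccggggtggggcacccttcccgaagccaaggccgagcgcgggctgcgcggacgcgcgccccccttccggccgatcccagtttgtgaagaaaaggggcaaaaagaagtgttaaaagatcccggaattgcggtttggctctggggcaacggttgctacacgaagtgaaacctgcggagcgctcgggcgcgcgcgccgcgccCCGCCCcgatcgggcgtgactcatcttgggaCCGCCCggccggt
Msn, chrX:96095795-96096041, plus strand: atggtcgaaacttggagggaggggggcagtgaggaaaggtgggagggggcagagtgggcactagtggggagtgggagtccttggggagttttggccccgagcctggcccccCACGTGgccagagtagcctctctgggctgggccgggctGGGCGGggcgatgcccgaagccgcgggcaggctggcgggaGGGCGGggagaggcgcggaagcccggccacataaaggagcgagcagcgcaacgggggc
Slc9a3r1, chr11:115163091-115163340, plus strand: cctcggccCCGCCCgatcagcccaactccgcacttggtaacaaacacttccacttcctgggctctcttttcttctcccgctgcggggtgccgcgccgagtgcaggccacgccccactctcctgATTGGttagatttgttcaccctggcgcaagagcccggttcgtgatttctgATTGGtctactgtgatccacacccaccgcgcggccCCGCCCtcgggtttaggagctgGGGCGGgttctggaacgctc
The GC box core stood 2 times in the Ezr, 2 times in the Msn and 3 times in the Slc9a3r1 stretch, the CCAAT box 2 times in Slc9a3r1 and the E-box 1 time in Msn. Of the 10 members, 9 had an entry, with 11 entries in all. Over 250 upstream bases 6 of the 11 entries held the GC box core, against 32.7% of all 32851 mouse promoters. The CCAAT box was in 5 of the 11 against 33.8%, the TATA box (TATAAA) in 1 against 12.4% and the E-box in 2 against 6.02%. The CArG box, the site known for serum response factor at actin genes, was in 1 (Actg1) against 1.47%. Actb is the member without an entry, so its promoter was not searched, and Rdx and Rhoa have 2 entries each. Such matches are letters in a window and say nothing of binding.

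The non-muscle myosin II heavy chains, the motors of the cortex, were scarce. Myh9 (ENSMUSG00000022443, chr15:77760587-77842175, minus strand), the IIA chain, ran from 0 to 221 normalised counts in 2i small, 0 to 184 in 2i ungated, 0 to 157 in N2B27 small and 0 to 127 in N2B27 ungated cells, with medians of 23.3, 1.62, 1.14 and 0. Its log2 ratio of small to ungated was 0.84 in N2B27 and 1.54 in 2i (1.28 without the high spike-in cells), and N2B27 against 2i gave -0.69 in ungated and -1.38 in small cells (-1.12). In N2B27, 7 of 20 small and 4 of 21 ungated cells had at least 10 counts, and among those the ratio was 0.03. Medians, counts and ratios thus rest on a few positive cells.

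Myh10 (ENSMUSG00000020900, chr11:68691559-68816632, plus strand), the IIB chain, had medians between 0 and 0.77 in the 4 groups. Its highest cell, at 789 in N2B27 small, held 82.4% of that group's normalised counts. The ratios of small to ungated were 0.45 in N2B27 and -1.01 in 2i (-0.45 without the high spike-in cells). Both chains reached 10 counts together in 2, 1, 0 and 1 cells of the 4 groups. Cells with Myh9 only numbered 6, 6, 7 and 3, those with Myh10 only 1, 6, 3 and 4, and those with neither 3, 9, 10 and 13. Absence of reads at this level is not absence of the transcript.

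Actb was the most abundant member. It and Actg1 encode near-identical proteins, and their first 30 coding bases are shown because the residues that set the proteins apart lie there. Capitals mark the bases that differ between them (GENCODE M21, GRCm38).
Actb, chr5:142905657-142905686, minus strand: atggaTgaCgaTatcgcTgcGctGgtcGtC
Actg1, chr11:120348062-120348091, minus strand: atggaAgaAgaAatcgcCgcActCgtcAtT
Of these 30 bases 8 differed, and 128 of 1125 over the coding sequence, which translated to 4 differing residues of 375. Only 1.03% of the 50-base windows of Actb occurred in Actg1, so reads can mostly tell them apart.

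Actb (ENSMUSG00000029580, chr5:142903115-142906754, minus strand), beta-actin, ran from 1500 to 15939 normalised counts in N2B27 small (median 7339), 2882 to 10905 in N2B27 ungated (5714) and 4615 to 12389 in 2i ungated cells (8649). In 2i small cells the range was 4155 to 236534 with a median of 10233. In N2B27 the mean was 7651 (SD 3608, n = 20 cells) in small and 5926 (SD 2180, n = 21 cells) in ungated cells, a log2 ratio of 0.37. It was higher in small cells in 4 of 4 row pairs (0.26 to 0.45) while the groups overlapped. Ungated cells had less Actb in N2B27 than in 2i, with a ratio of -0.57. In 2i the ratio of small to ungated was 2.13, and 0.20 without the high spike-in cells, whose Actb levels were 7371, 59053, 79042 and 236534.

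Actg1 (ENSMUSG00000062825, chr11:120345690-120348542, minus strand), gamma-actin, had medians of 1259, 2106, 1390 and 1551 normalised counts in the 4 groups, with lowest cells at 198, 420, 337 and 265 and highest at 15588, 5199, 4044 and 3725. The ratios of small to ungated were -0.083 in N2B27 and 0.16 in 2i (-0.53 without the high spike-in cells), and ungated N2B27 against 2i gave -0.37. Per kilobase, and without the pseudogenes described next, Actb was more than 50% of the pair in each of the 75 cells, with medians of 91.9% (80.9% without the high spike-in cells), 81.5%, 83.2% and 76.6%.

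**Figure D2:**
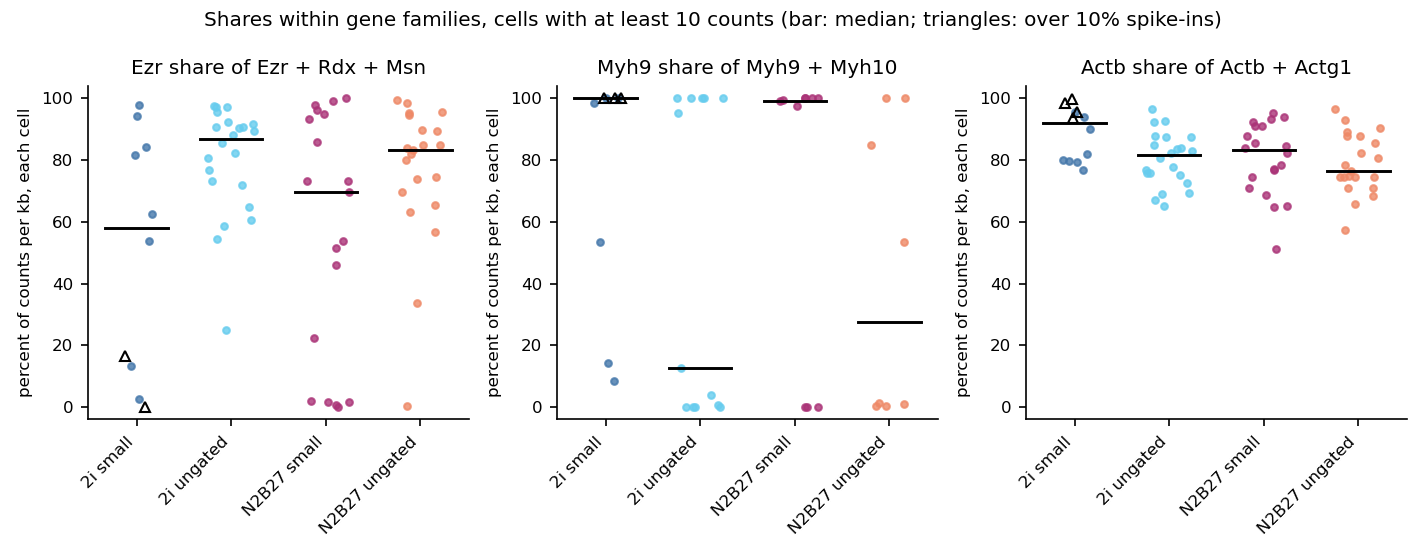
Each point is 1 kept cell and shows the percent of a family's counts per kilobase on 1 gene: Ezr of the 3 ERM genes, Actb of Actb plus Actg1, and Myh9 of Myh9 plus Myh10, by group, for cells with at least 10 counts in the family, with bars at the medians and triangles for cells above 10% spike-ins. Without pseudogene counts Actb lies above 50% in each cell, Ezr spreads from 0% to 100% in N2B27 small cells around a median of 69.6%, and Myh9 lies mostly near 0% or 100%.

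The Actg1 count itself depends on the treatment of pseudogenes. Gm12715 (chr4:103563402-103564529, plus strand), a processed pseudogene of 1128 bases, differed from the Actg1 coding sequence at 4 of 1125 aligned bases, and 90.2% of its 50-base windows also occurred in Actg1. Its first 30 bases show 0 differences from the Actg1 start.
Gm12715, chr4:103563402-103563431, plus strand: atggaagaagaaatcgccgcactcgtcatt
Its mean over kept cells was 2465 normalised counts, 127% of that of Actg1 (1937), and it exceeded Actg1 in 68 of 75 cells. Its log2 level followed that of Actg1 with r of 0.95, 0.98, 0.90 and 0.98 in 8, 22, 20 and 21 cells. A second copy, Gm8399 (chr13:81064684-81065800, plus strand, 8 differences in 1117 bases), stood at 29.8% of Actg1. Of the windows of Gm8399, 63.4% also occurred in Actg1. How far the deposited counts separate Actg1 from these copies was not tested, so their levels are uncertain.

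Adding the pseudogene counts to Actg1 lowered the share of Actb in each group. The median share of Actb in plain counts fell from 92.0% to 81.4% in 2i small and from 81.6% to 60.8% in 2i ungated cells. Without the high spike-in cells the 2i small values were 81.1% and 59.6%. In N2B27 the share fell from 83.3% to 64.7% in small and from 76.8% to 55.7% in ungated cells. The lowest cells were then at 54.9%, 41.3%, 26.9% and 33.4%, so Actb was no longer above 50% in each cell. The log2 ratios of Actg1 became -0.09 for small to ungated in N2B27, -0.56 in 2i without the high spike-in cells, and -0.45 for N2B27 against 2i in ungated cells. With all 12 2i small cells the 2i ratio turned from 0.16 to -0.39.

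**Figure D3:**
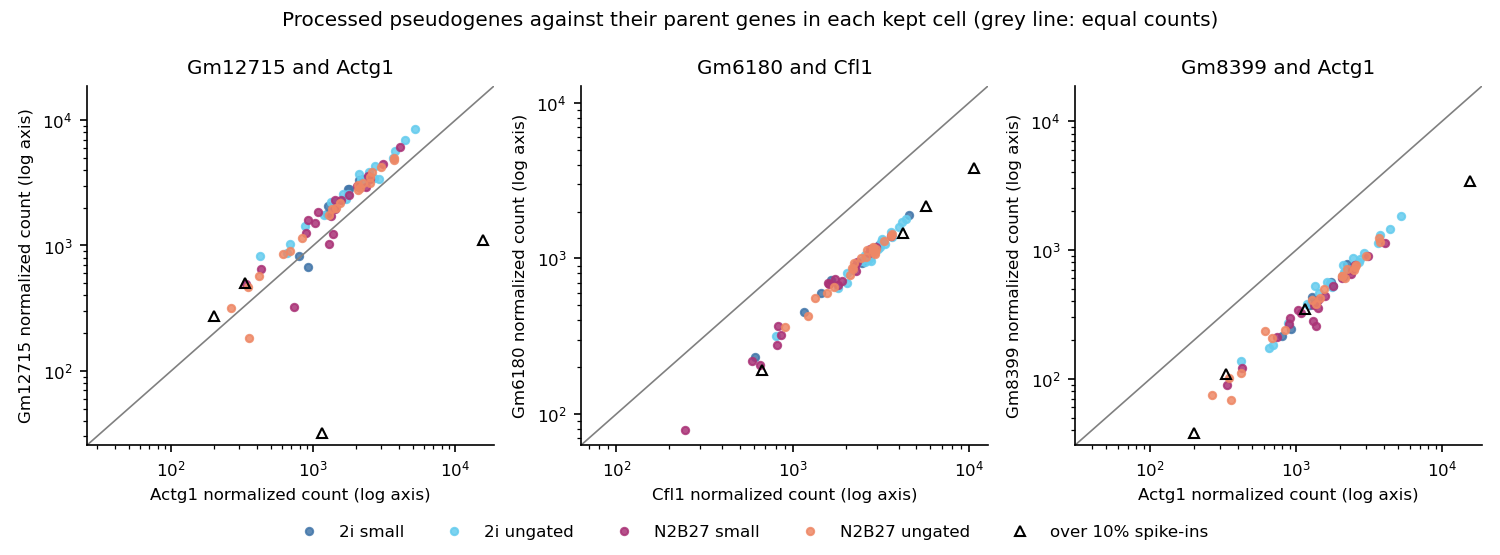
Each point is 1 kept cell, with normalised counts of the member gene on the x axis and of its processed pseudogene on the y axis, both log axes, coloured by group, with the line of equal counts. Gm12715 lies above the line in 68 of 75 cells against Actg1, and Gm8399 (against Actg1) and Gm6180 (against Cfl1) lie below it in each cell.

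Cfl1 (ENSMUSG00000056201, chr19:5490455-5495201, plus strand), cofilin-1, which severs and depolymerises actin filaments, ran from 246 to 3604 normalised counts in N2B27 small (median 1858) and from 905 to 3673 in the ungated cells of that medium (2610). The log2 ratio was -0.39, with overlapping groups. In 2i the medians were 2568 in small and 2782 in ungated cells and the ratio was 0.17, or -0.38 without the high spike-in cells. Ungated N2B27 against 2i gave -0.24. Its pseudogene Gm6180 (chr8:42246911-42247408, plus strand), with 6 differences in 498 bases, stood at 38.8% of Cfl1, with r of 0.99 over all 75 cells centred by group, and adding it left the N2B27 ratio at -0.38.

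Rhoa (ENSMUSG00000007815, chr9:108306129-108337934, plus strand), the GTPase that drives actomyosin contraction and furrow ingression, was close between groups once the high spike-in cells were left out. The means were 835 in 2i small, 843 in 2i ungated, 685 in N2B27 small and 819 in N2B27 ungated cells, with medians of 831, 790, 563 and 732. The ratios of small to ungated were -0.26 in N2B27 and -0.01 in 2i, and with all 12 2i small cells the latter was 1.55, since 1 cell held 18933 of Rhoa. Ungated N2B27 against 2i gave -0.04.

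Without pseudogene counts or high spike-in cells, mean levels per kilobase of exon ordered the members alike in the upper part of each group. Actb stood first (2212 to 3787 normalised counts per kilobase over the 4 groups), then Cfl1 (655 to 1010) and Actg1 (569 to 824), which lay close together with overlapping cells. Slc9a3r1 (182 to 340) and Ezr (91.7 to 254) followed, with Rhoa (91.4 to 112). Rdx (25.3 to 46.1) and Msn (4.48 to 27.1) came next, and Myh9 (1.15 to 4.70) and Myh10 (2.98 to 4.57) were lowest, except that in 2i small cells Msn (4.48) stood below Myh9 (4.70). Neighbours in this order overlapped over cells in each group, except Actb and Cfl1 in 2i ungated cells. The place of Cfl1 above Actg1 depends on the pseudogenes. With their counts added, means not divided by length were 4191, 6199, 4266 and 4539 for Actg1. Those of Cfl1 were then lower, at 3092, 3983, 2598 and 3393. The kilobases are of all annotated exons of a gene, 7494 bases for Rhoa, so the order depends on these lengths too.

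The members past a 2-fold change were counted beside all genes. In N2B27, small against ungated, 0 of 10 were higher by at least 2-fold against 11.9% of all genes, and 2 (Ezr, Msn) were lower against 17.2%. Their median log2 ratio was -0.32 against -0.12 over all genes. In 2i, 4 (Rdx, Myh9, Actb, Rhoa) were higher against 15.4% and 3 (Msn, Slc9a3r1, Myh10) lower against 28.8%. Without the high spike-in cells 1 (Myh9) was higher against 6.99% and 1 (Msn) lower against 20.8%, with medians of -0.38 and -0.21.

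Between media, N2B27 against 2i in small cells had 2 members (Msn, Myh10) higher against 23.3% of all genes and 4 (Rdx, Myh9, Actb, Rhoa) lower against 18.4%. Without the high spike-in cells 1 (Msn) was higher against 18.9% and 2 (Ezr, Myh9) lower against 13.9%. In ungated cells 1 (Msn) was higher against 7.61% and 0 lower against 9.89%. The member medians were -0.70 in small cells (-0.26 without the high spike-in cells) and -0.15 in ungated cells, beside 0.11, 0.07 and -0.03 over all genes. Contrasts that share a group are not independent of each other.

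**Figure D4:**
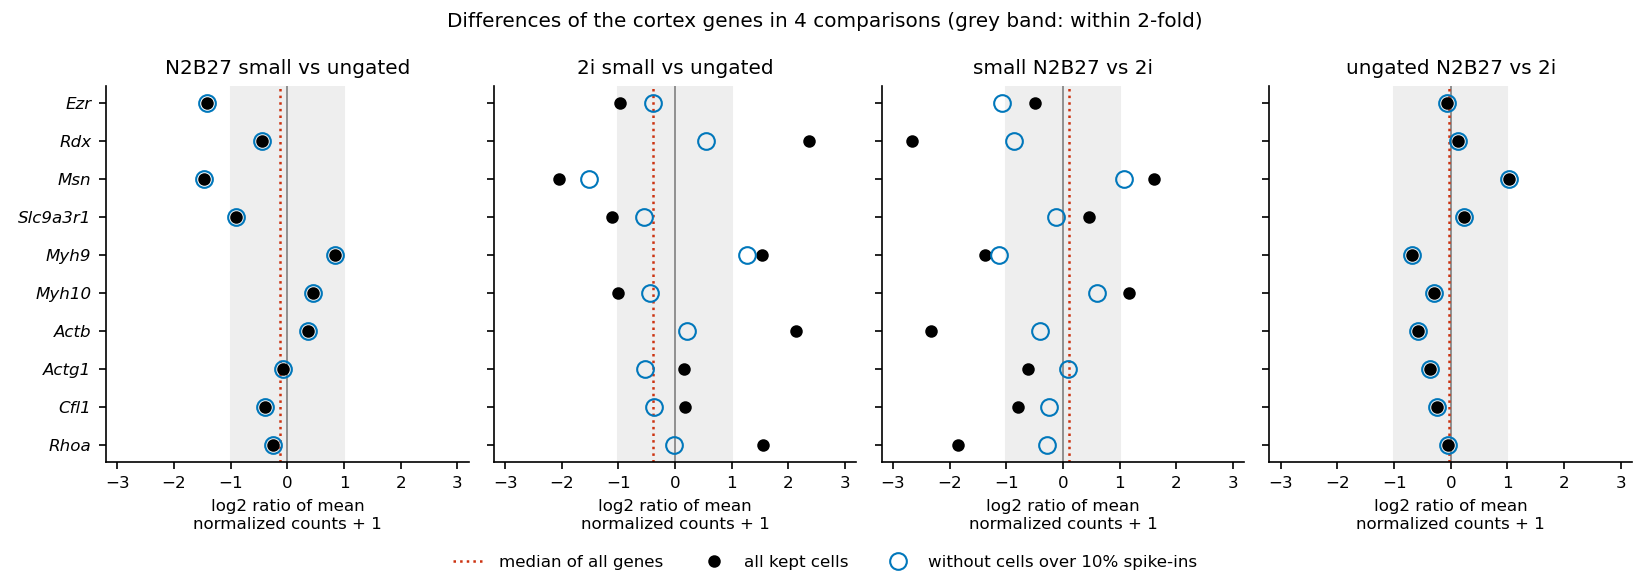
Points show the log2 ratio of mean normalised counts for each of the 10 members in the 4 comparisons, with filled points for all kept cells, open circles without the 4 2i small cells above 10% spike-ins, a grey band within 2-fold and a dotted line at the median of all genes. Ezr and Msn lie beyond 2-fold in N2B27 small against ungated (-1.41 and -1.47), and Rdx, Actb and Rhoa move to within 2-fold in the 2i comparison once those 4 cells are left out (0.54, 0.20 and -0.01).

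Some members varied together over cells within a group. Actg1 and Cfl1 had Pearson r of 0.62, 0.63, 0.58 and 0.57 in 8, 22, 20 and 21 cells of the 4 groups, the high spike-in cells left out. Ezr and Rhoa had r of 0.84, 0.39, 0.67 and -0.08 in the same cells. Over all 75 cells centred by group, among 1223 genes with a count in each cell, the profile most like that of Ezr was Rrp1 (r 0.64), that of Slc9a3r1 was Bcat1 (0.67), that of Actb was Set (0.75) and that of Rhoa was Hnrnpc (0.60). Those of Rdx, Msn and Myh9 were Glo1 (0.51), Rrp1 (0.43) and Ubl5 (0.37), and Actg1 and Cfl1 were closest to their pseudogenes Gm8399 and Gm6180 (both 0.99). Over 71 cells without the high spike-in cells the closest gene was another one for 6 members: Gm2423 for Ezr (0.60), Tmem167 for Rdx (0.43), Kif22 for Msn (0.47), Atp5d for Slc9a3r1 (0.66), Canx for Actb (0.58) and Ppp1ca for Rhoa (0.69). These cells share plates and size factors.

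Of 92 other cortex genes, 90 were in the files and 76 had a mean of at least 20. In N2B27, 10 of the 76 were higher and 17 lower in small cells by at least 2-fold (13.2% and 22.4%, against 11.9% and 17.2% of all genes), with a median of -0.26. Genes of actin assembly and turnover made up 7 of the lower and 1 of the higher, out of 31, with a median log2 ratio of -0.48. Cfl2, the cofilin best known from muscle, had means of 87.7 in small and 357 in ungated cells (-2.01), and Zyx, zyxin of focal adhesions, 29.6 and 186 (-2.61). Myo1c, a membrane-bound myosin I, gave 9.28 and 40.3 (-2.005). Among the higher genes, Rac1, the GTPase of lamellipodia, had 206 and 83.7 (1.29), Ect2, the activator of RhoA in cytokinesis, 223 and 87.8 (1.34), and Tln1, talin, which joins integrins to actin, 246 and 79.5 (1.61). The sign turned in at least 1 other processing for Myo1c, Ect2 and Tln1 and for none of the other 3.

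By list in the same N2B27 comparison, membrane linkage genes had 4 higher and 3 lower of 11 (36.4% and 27.3%). Myosin II and its control had 0 and 1 of 8 (0% and 12.5%), and crosslinkers and adhesion 2 and 3 of 17 (11.8% and 17.6%). Of all genes 11.9% were higher and 17.2% lower. In 2i, 11 of the 76 were higher and 18 lower (14.5% and 23.7%, against 15.4% and 28.8% of all genes). Without the high spike-in cells 6 were higher and 10 lower (7.89% and 13.2%, against 6.99% and 20.8%). Genes of actin assembly and turnover then had a median of -0.25, against -0.21 over all genes. In small against ungated 2i cells Pip5k1b, Pip5k1c and Pip5k1a gave -3.23, -3.11 and -2.38, and -2.82, -2.65 and -1.82 without the high spike-in cells. They encode kinases that make the phosphoinositide to which ERM proteins bind. Rock2, the kinase that acts on myosin II, gave 6.62 with all 12 small cells and 2.04 without the high spike-in cells, Slk, an ERM kinase, 5.97 and 2.13, and Actr2, of the Arp2/3 complex, 2.84 and 0.39.

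In ungated cells of the 2 media 4 of the 76 were higher in N2B27 and 6 lower (5.26% and 7.89%, against 7.61% and 9.89% of all genes). Tmsb4x, thymosin beta-4, which sequesters actin monomers, had means of 715 in N2B27 and 182 in 2i (1.97). Tpm2, a tropomyosin, gave 1.57 and Rhoc, a close relative of Rhoa, 1.53. Arhgap35, a GTPase-activating protein, gave -2.57, Pip5k1a -1.52 and Myo1e, a myosin I, -1.43. In small cells Tmsb4x gave 2.50, Anln, anillin, 1.66, Actn4, an actin crosslinker, 1.63 and Limk1, the kinase that inactivates cofilin, -4.40. Without the high spike-in cells these were 1.93, 1.11, 1.06 and -4.97. In the same cells Rock2 and Slk gave -5.80 and -4.65, or -1.22 and -0.81 without the high spike-in cells. The 4 muscle actins and Srf were below a mean of 20, and Mkl1 and Mkl2 found no match by symbol. In these last comparisons the sign turned in at least 1 other processing for Pip5k1c and Actr2 (2i) and for Tmsb4x, Anln and Rock2 (small cells).

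**Figure D5:**
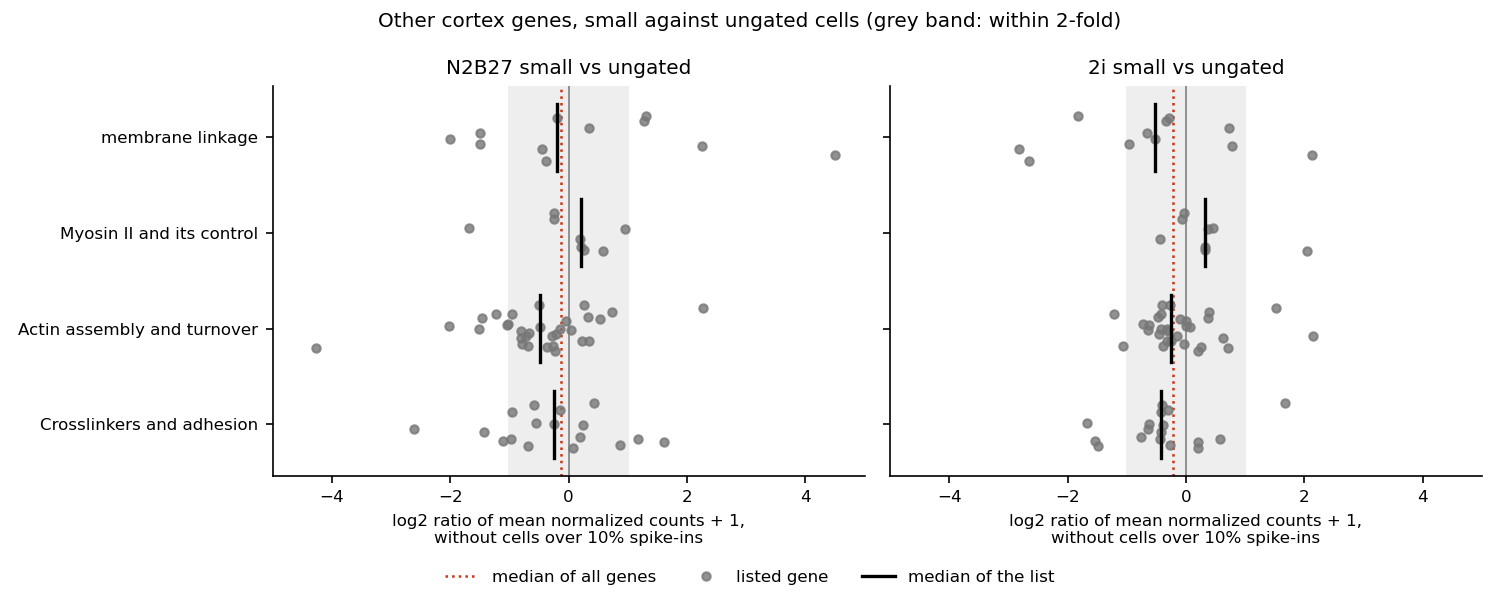
Points show the log2 ratio of small to ungated cells in N2B27 and in 2i, without cells above 10% spike-ins, for the genes of 4 cortex lists with a mean of at least 20 normalised counts, by list, with list medians as bars, a dotted line at the median of all 8757 genes and a grey band within 2-fold. In N2B27 the 31 genes of actin assembly and turnover have a median of -0.48, left of the line at -0.12. In 2i their median is -0.25, close to the line at -0.21.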

How the data were processed

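Single mouse ES cells were sequenced with Smart-seq2 in 4 samples of 24 cells, 1 sample a group by the labels' medium and gate. The deposited values are raw read counts per gene and cell, made by the authors with Trim Galore 0.4.4, GSNAP (GRCm38), Ensembl release 81 annotation and HTSeq. How reads with several best matches were treated beyond HTSeq's count classes, and strand, are not given in the sources used here. Per table total, 72.4% of counts lay on genes, 3.85% on spike-ins, 6.77% were ambiguous, 4.81% had no feature and 0.0498% were not unique. Symbols came from GENCODE M21 for 45229 of 46078 genes.

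From these counts, cells were kept within 3 MAD per plate for total counts, genes detected and mitochondrial share (scater 1.30.1), which left out 21 cells, 10 of them with more spike-in than gene counts. The limits thus differed by medium, with at least 4435 genes and 307960 counts on the 2i plate. On the N2B27 plate they were 5316 genes and 1250614 counts. The kept 2i small cell with 40.9% spike-ins had 4612 genes. No doublet caller was run on these sorted single cells. Size factors (DESeq2 1.42.0, 1227 genes with a count in each kept cell) and phases (cyclone, scran 1.30.0) were computed in R 4.3.3, and all else with pandas 2.3.3, numpy 2.4.6, scipy 1.17.1 and matplotlib 3.10.9 under Python 3.11.15. The calculation of ratios was run on simulated counts made with the cells' own size factors. This tests neither the normalisation nor the effect of outlier cells. Without molecular identifiers, reads are not independent molecules, so Poisson intervals (95%) cover counting error only. Kept cells of 1364155 to 4844170 counts limit what can be read of genes below about 10 counts. No p-value was computed, since each condition is 1 sample.

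All 10 members are named. From lists of 92 other cortex genes, up to 3 per comparison and direction are named: those with the largest ratio past 2-fold, a mean of at least 20 and a count in at least 50% of cells of the higher group. For each member with a count in at least 50% of cells, the gene with the highest r is named. The counts of 1 list alone are not reported here. The lists, like the members, were chosen with earlier results of these data known. A total of 17 alternatives were tried: other size factors, CPM, pooled counts, means of logs, medians, pseudocounts, thinning to 1770000 counts (67 cells), S-phase cells alone, all 24 cells of each sample, the highest cell left out, and 2i small cells left out.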

Additional observations from a re-analysis of the deposited data

Results flagged for a closer look

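For 5 members the ratio of small to ungated cells had opposite signs in the 2 media, which singled them out. The log2 ratios in N2B27 and 2i were -0.44 and 2.36 for Rdx, 0.45 and -1.01 for Myh10, -0.083 and 0.16 for Actg1, -0.39 and 0.17 for Cfl1, and -0.26 and 1.55 for Rhoa. For 2 members the ratio of N2B27 to 2i had opposite signs in small and ungated cells, at -2.67 and 0.13 for Rdx and 1.17 and -0.29 for Myh10. With 1 sample a group the difference between these effects was not tested. Without the 4 2i small cells above 10% spike-ins, 2 members had opposite signs in the first contrast and 4 in the second.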

How the results depend on the processing

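Of 17 alternatives, 3 were chosen after seeing the data (without cells above 10% spike-ins, medians over cells, without both singled-out 2i small cells, those with the most genes and the highest spike-in share), as was the check of cortex-list genes. In the N2B27 gate comparison Ezr (-3.00 to -0.94), Slc9a3r1 (-3.68 to -0.50) and Msn (-2.27 to -0.63) were below 0 in 17 of 17. In 2i, Ezr (-3.52 to -0.39) and Slc9a3r1 (-3.15 to -0.28) were below 0 in 17 of 17 and Msn in 16. In ungated cells Msn was higher in N2B27 in 17 of 17 (0.40 to 1.42), and past 2-fold in 12. Spike-in size factors moved the median of all genes to -0.82 in the N2B27 gate, 0.77 in the 2i gate and -1.55 in the small-cell medium comparison, and poscounts factors to 0.30, 0.22 and 0.29. For the member medians and the counts past 2-fold, 108 values stayed near and 28 moved. Of the other values, ratios of single genes and family shares, 463 stayed near, 759 moved and 26 turned sign. A turn of sign was labelled only where the main ratio was at least 1 in size, which no member median was. The cause of the changes was not tested.

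Members past 2-fold, small against ungated in 2i (7 reported), numbered 4 with CPM, 4 with spike-in factors, 4 with means of logs, 4 with medians, 4 without both 2i small cells, 3 with pooled counts, 3 without the cell with the highest spike-in share, 2 in S-phase cells, 2 without cells above 10% spike-ins and 1 after thinning. In N2B27 (2 reported) they numbered 5 in S-phase cells, 5 with the highest cell left out, 5 with medians, 5 with spike-in factors, 4 with all 24 cells and 4 with means of logs. Between media in small cells (6 reported) they were 2 in S-phase cells, 2 after thinning, 3 with the highest cell left out and 3 without cells above 10% spike-ins. In ungated cells (1 reported) they were 3 in S-phase cells, 2 with all 24 cells, 2 with medians, and 0 with the highest cell left out, with means of logs or with a pseudocount of 5. The member median became -0.999 with spike-in factors (N2B27 gate) and 0.33 with poscounts factors (ungated media).

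Signs turned as follows. With all 24 cells, the 2i gate ratio was -3.67 for Rdx and -0.90 for Myh9, the small-cell medium ratio 0.57 for Myh9, and the N2B27 gate ratio 0.71 for Myo1c. With spike-in factors, the 2i gate gave 0.52 for Msn, 0.82 for Myh10 and 0.32 for Pip5k1c, and the small-cell medium comparison -1.34 for Msn, -1.68 for Myh10, -1.61 for Anln and -1.16 for Tmsb4x. Means of logs gave -0.012 for Rdx (2i gate), -0.14 for Myh10 (small cells) and -0.79 for Ect2 (N2B27 gate), and medians -0.78 for Ect2 and -0.81 for Tln1 (N2B27 gate). In S-phase cells the 2i gate gave -0.21 for Rdx, -0.12 for Actb, -0.17 for Rhoa and -0.62 for Actr2, the small-cell medium comparison 0.26 for Rdx, -0.31 for Myh10 and 3.02 for Rock2, and the N2B27 gate 1.52 for Myo1c. Rhoa in the 2i gate was -0.16 after thinning and -0.014 without cells above 10% spike-ins. No paired analysis was possible because each group is 1 sample and no result comes from a test.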
